A study of Mus musculus with 9 samples.

Results

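The Slc25 genes encode the mitochondrial carrier family, and they were followed here across 9 arrays of mouse embryonic stem (ES) cells. Members were all genes whose deposited symbol is Slc25a followed by a number, on either of the 2 array platforms. This rule used no measured value, and it found 41 of the 33212 distinct gene symbols on the platforms, with 40 on the platform of the Wdr5 comparison and 39 on that of the Oct4 comparison. The first comparison set 3 arrays of a Wdr5 knockdown against 2 arrays of a luciferase control. Per the labels, the knockdown RNA came from the rescue clone Wdr5R4 without doxycycline, which expresses a short hairpin RNA (shRNA) against Wdr5. The control was labelled LucR with doxycycline. Both lines carried the reverse tetracycline transactivator (Aniv15). Because the knockdown is 1 clone, the clone, the shRNA and doxycycline cannot be told apart as sources of a difference, and the growth description common to all samples includes doxycycline (1 ug/ml). The second comparison set 2 arrays of an Oct4 knockdown by shRNA (Oct4 is the product of Pou5f1) against 2 arrays of a GFP shRNA control. These were CCE or E14T ES cells, and no label says which line was used where. All cells grew on mouse embryonic fibroblast feeders with LIF. Nothing in the labels says that replicates came from separate cultures, so the p-values measure only the spread between arrays, which may be technical.

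Mitochondrial carriers are small proteins of the inner mitochondrial membrane that exchange nucleotides, phosphate, carboxylates, amino acids, cofactors and metal ions between cytosol and matrix. They are encoded in the nucleus, made in the cytosol and inserted by the TOM and TIM22 import machinery. ES cells rely strongly on glycolysis, and their mitochondria change in form and activity during differentiation. Wdr5 is a subunit shared by the histone H3 lysine 4 methyltransferase complexes of the COMPASS family, and Oct4 is a transcription factor required for pluripotency.

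Of the 18 members tested in both comparisons, 5 were called in both (27.8%, against 33.8% of the 6170 genes tested in both). The sequence upstream of 4 of these 5 is given. Each is the 300-base RefSeq window of build GRCm38.p6 from 250 bases before to 50 bases after the gene's start, written 5′ to 3′ on the gene's strand, with matches to any of the motifs named below in capitals. The Slc25a36 window lies at chr9:97110992-97111291 on the minus strand, that of Slc25a39 at chr11:102407468-102407767 on the minus strand, that of Slc25a5 at chrX:36795347-36795646 on the plus strand and that of Slc25a24 at chr3:109122899-109123198 on the plus strand. The gene called in both that has no window printed is Slc25a44.
Slc25a36: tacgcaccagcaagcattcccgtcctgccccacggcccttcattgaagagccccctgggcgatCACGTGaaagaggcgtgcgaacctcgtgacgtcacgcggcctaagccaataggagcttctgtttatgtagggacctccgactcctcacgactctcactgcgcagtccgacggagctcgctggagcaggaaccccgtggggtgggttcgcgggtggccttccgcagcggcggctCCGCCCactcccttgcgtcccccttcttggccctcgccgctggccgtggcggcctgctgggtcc
Slc25a39: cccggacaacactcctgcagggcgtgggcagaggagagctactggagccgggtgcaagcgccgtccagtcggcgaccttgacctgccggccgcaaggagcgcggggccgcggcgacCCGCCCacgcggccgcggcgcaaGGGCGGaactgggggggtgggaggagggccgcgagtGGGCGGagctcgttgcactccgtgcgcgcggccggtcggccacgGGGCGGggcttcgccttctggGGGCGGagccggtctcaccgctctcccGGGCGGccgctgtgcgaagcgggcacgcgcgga
Slc25a5: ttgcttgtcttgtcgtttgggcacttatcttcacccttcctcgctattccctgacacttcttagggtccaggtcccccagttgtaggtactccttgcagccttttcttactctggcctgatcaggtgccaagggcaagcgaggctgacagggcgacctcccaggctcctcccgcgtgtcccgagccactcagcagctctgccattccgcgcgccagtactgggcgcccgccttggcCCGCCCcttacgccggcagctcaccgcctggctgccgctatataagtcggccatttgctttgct
Slc25a24: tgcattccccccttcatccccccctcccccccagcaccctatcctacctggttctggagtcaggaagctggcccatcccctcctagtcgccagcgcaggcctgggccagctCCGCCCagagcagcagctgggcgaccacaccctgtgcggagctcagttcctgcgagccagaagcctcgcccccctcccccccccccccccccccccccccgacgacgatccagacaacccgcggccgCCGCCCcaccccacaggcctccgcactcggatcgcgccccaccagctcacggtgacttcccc

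The motifs searched on both strands were GGGCGG (the GC box), CCGGAAG (the core bound by ETS factors), CACGTG (the E-box), ATGCAAAT (the octamer) and TATAAA (the TATA box). The windows of Slc25a39, Slc25a24, Slc25a36 and Slc25a5 held 6, 2, 1 and 1 GC boxes, and the window of Slc25a36 also held 1 E-box, with no overlap between motifs. No other motif was found in these 4 windows. Of the 40 windows that the table gives for 31 members, 85.0% held a GC box, against 35.7% of all 32851 windows. An E-box was in 20.0% of the member windows and 7.15% of all windows, the ETS core in 15.0% and 8.86%, and the TATA box in 5.0% and 13.6%. The octamer, found in 1.74% of all windows, was in no member window. The median GC content was 59.7% in the member windows and 52.7% in all windows, and windows of matched GC content were not compared. These counts describe letters in a window and are not binding sites.

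Signals are given after background correction and quantile normalization, on the log2 scale, each gene by its brightest probe that passed the detection filter. A probe was above background on an array with a detection score above 0.95, and it was tested where this held on at least 2 arrays of the comparison. Mean deposited intensities were 375 to 429 on the Wdr5 knockdown arrays and 448 to 518 on the luciferase arrays. They were 110 and 111 on the Oct4 knockdown arrays, against 278 and 344 on the GFP arrays. Wdr5 itself fell in the Wdr5 knockdown (log2 fold change -0.96 ± 0.07 SE, limma adjusted p = 0.000121) and Pou5f1 fell in Oct4 knockdown cells (-2.28 ± 0.15 SE, limma adjusted p = 0.000685). Of the ES cell markers, 10 of 10 tested fell in the Wdr5 knockdown and 6 of 7 in the Oct4 knockdown. Over all genes tested, 30.5% and 18.1% were lower. Among the 10, Fgf4 was above background on no knockdown array and passed the filter by the luciferase arrays alone.

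In the Wdr5 knockdown the carriers moved in both directions. Slc25a36, which carries pyrimidine nucleotides, fell 8.80-fold, and the related Slc25a33 fell 2.76-fold. The phosphate carrier Slc25a3, by its brighter probe, and the ADP/ATP carrier Slc25a5 fell, and so did the ornithine carrier Slc25a15 and the carnitine/acylcarnitine carrier Slc25a20. Higher were Slc25a44, a carrier of branched-chain amino acids (2.82-fold), the dicarboxylate carrier Slc25a10 (2.65-fold) and the ATP-Mg/phosphate carriers Slc25a24 (2.21-fold) and Slc25a25 (1.90-fold). Of the 30 members tested, 9 were higher, 11 were lower and 10 were not called at a limma adjusted p under 0.05. This is 66.7% of them, against 68.7% of all 10119 genes tested, so the share called is close to the background. In single directions 30% of the members were higher, against 38.2% of all genes, and 36.7% were lower, against 30.5%. Past 2-fold, 7 were lower (23.3%, against 9.63% of all genes) and 3 were higher (10%, against 11.3%). Of the 7 lower, Slc25a3 depends on the probe, as given below, and Slc25a30 was above background on no knockdown array. With an offset of 50 in the background correction, Slc25a14 (-0.88), Slc25a20 (-0.96) and Slc25a30 (-0.92) were under 2-fold. The share of all genes past 2-fold was not counted at that setting. The groups did not overlap for 22 members (73.3%, against 79.1% of all genes). The median log2 fold change was -0.08 over the members and 0.10 over all genes, and the median absolute value was 0.78 against 0.51. The members passed a filter on low signal, so none of these shares covers the 10 that were not tested. Slc25a30 and Slc25a41 passed it by the control arrays alone, and Slc25a45 by the knockdown arrays alone.

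**Figure D1:**
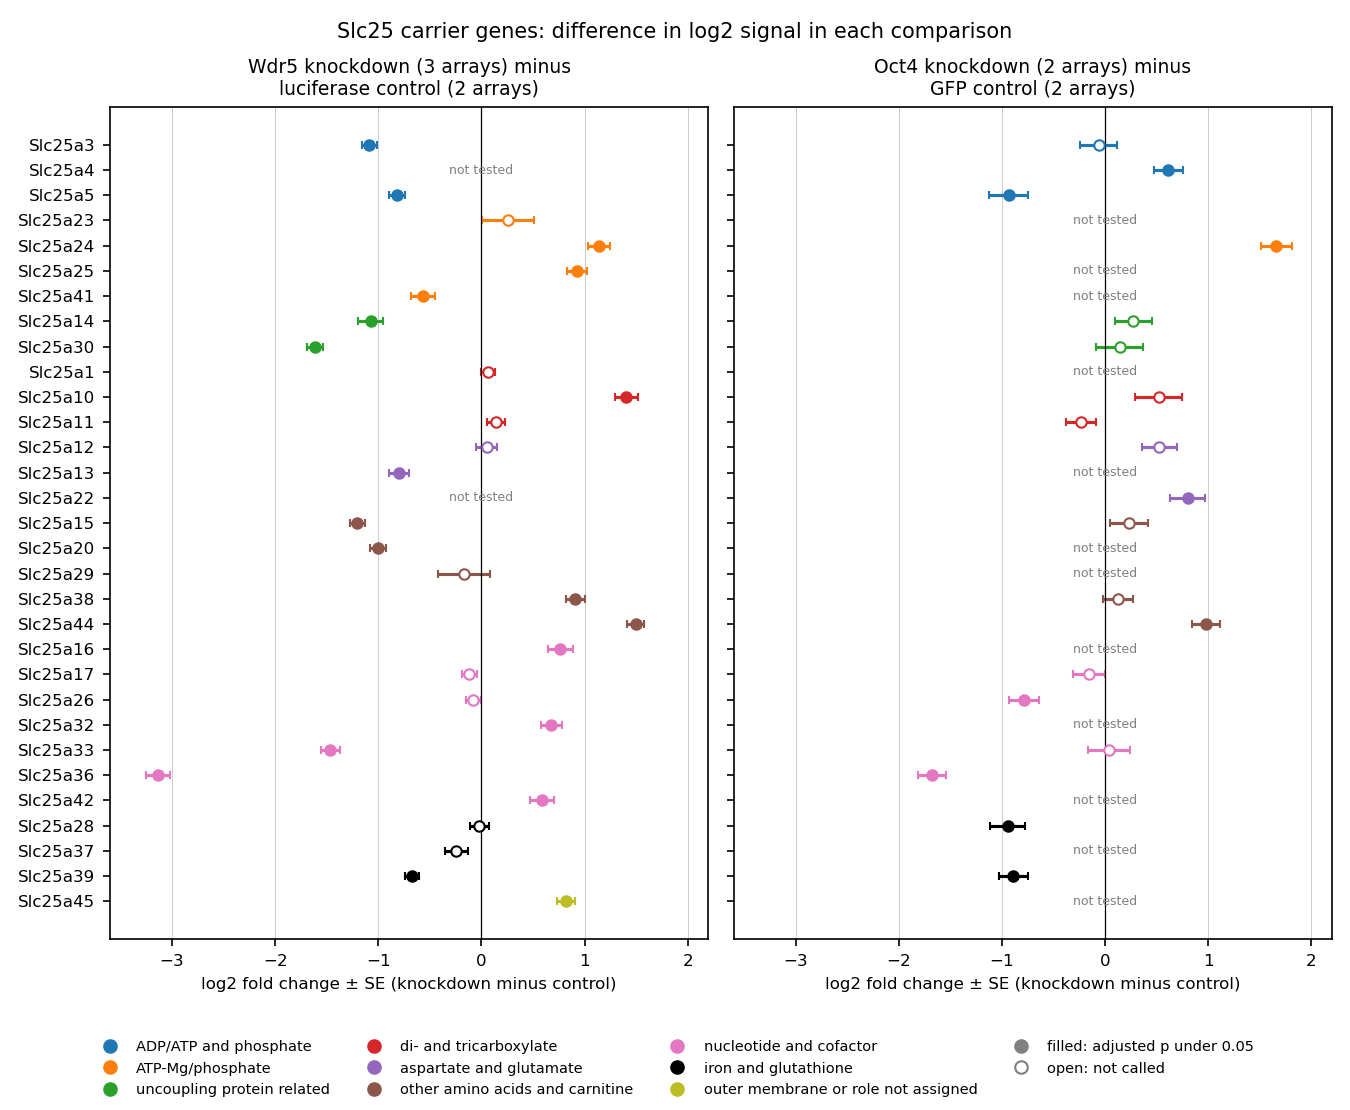
Log2 fold change of tested Slc25 genes, knockdown minus control, with its standard error, in the Wdr5 comparison (left, 3 against 2 arrays) and the Oct4 comparison (right, 2 against 2 arrays). Colour gives the role, filled points passed the limma test at an adjusted p under 0.05, and Slc25a36 lies farthest to the left in both panels, at -3.14 and -1.68, while values of genes below background in 1 group are fitted values and not bounds.

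Among the 8 tested carriers of nucleotides and cofactors, 2 fell and 3 rose in the Wdr5 knockdown. These shares, 25% and 37.5%, are near the 30.5% and 38.2% of all genes. Slc25a36 had log2 signals of 7.35, 7.11 and 7.39 on the knockdown arrays, against 10.32 and 10.52 on the luciferase arrays. Its deposited intensities were 139.8, 104.4 and 124.5 on the knockdown arrays, against 1254 and 1686 on the control arrays, so every knockdown array was far below every control array. The log2 fold change was -3.14 ± 0.12 (SE, limma adjusted p = 1.68e-05). Slc25a33 had signals of 7.20, 7.18 and 7.38 in the knockdown, against 8.78 and 8.66 in the control, again with no overlap (-1.46 ± 0.09 SE, limma adjusted p = 6.01e-05). Slc25a16, a carrier linked to coenzyme A metabolism (0.77), Slc25a32, the folate and FAD carrier (0.68), and Slc25a42, which carries coenzyme A (0.59), were higher on the log2 scale. Slc25a26, the S-adenosylmethionine carrier, and the peroxisomal Slc25a17 were not called, at -0.08 and -0.12.

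Both tested members of the ADP/ATP and phosphate group fell by their brightest probe. Slc25a3 supplies the phosphate for ATP synthesis and had log2 signals of 11.37, 11.39 and 11.30 in the Wdr5 knockdown, against 12.40 and 12.48 in the luciferase control (-1.08 ± 0.07 SE, limma adjusted p = 6.82e-05). Slc25a5 exchanges ADP for ATP in proliferating cells and had 13.07, 13.12 and 13.22 in the knockdown, against 13.97 and 13.95 in the control (-0.82 ± 0.08 SE, limma adjusted p = 0.000245). The knockdown arrays were below the control arrays for both genes. Slc25a4, the form of the ADP/ATP carrier known from heart and muscle, was above background on none of the 5 arrays.

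The calcium-regulated ATP-Mg/phosphate carriers Slc25a24 and Slc25a25 were higher. Slc25a24 had log2 signals of 8.02, 8.30 and 8.28 in the Wdr5 knockdown, against 7.03 and 7.08 in the control (1.14 ± 0.11 SE, limma adjusted p = 0.000245), and every knockdown array was above both controls. Slc25a25 changed by 0.93 ± 0.10. Slc25a41, the form without calcium regulation, was above background on no knockdown array and at least 1.08-fold lower, with a mean signal of 4.69 in the knockdown and 5.25 in the control. Slc25a23 was not called (0.26 ± 0.25), but without Wdr5 knockdown replicate 2 it was at 0.54 and called (limma adjusted p = 0.00432).

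Both tested relatives of the uncoupling proteins fell, but 2 genes are too few to set against the 30.5% of all genes that were lower. Slc25a14 had log2 signals of 6.98, 6.83 and 6.60 in the Wdr5 knockdown, against 7.86 and 7.89 in the control (-1.07 ± 0.12 SE, limma adjusted p = 0.000523). Slc25a30 had 4.69, 4.66 and 4.78 in the knockdown, against 6.27 and 6.37 in the control. It was above background on no knockdown array and on both control arrays, and it was at least 2.26-fold lower (limma adjusted p = 2.77e-05). For both genes the knockdown arrays lay below the controls.

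Carriers of carboxylates and amino acids divided by direction. Slc25a10, which exchanges malate and succinate for phosphate, had log2 signals of 7.74, 7.62 and 7.43 in the Wdr5 knockdown, against 6.26 and 6.13 in the control (1.40 ± 0.11 SE, limma adjusted p = 0.00013). The knockdown arrays stood above both controls, while the citrate carrier Slc25a1 (0.06) and the oxoglutarate carrier Slc25a11 (0.14) were not called. Of the aspartate/glutamate carriers of the malate-aspartate shuttle, Slc25a13 changed by -0.79 ± 0.10 and was above background on 1 of 3 knockdown arrays, and Slc25a12 was not called (0.05 ± 0.10).

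Slc25a44 had log2 signals of 8.52, 8.41 and 8.46 in the Wdr5 knockdown, against 6.89 and 7.04 in the luciferase control (1.50 ± 0.08 SE, limma adjusted p = 4.01e-05). Slc25a38, which brings glycine into the matrix for heme synthesis, was also higher (0.91 ± 0.09). Slc25a15, the ornithine carrier of the urea cycle, had 7.33, 7.27 and 7.21 in the knockdown, against 8.45 and 8.49 in the control (-1.20 ± 0.07 SE, limma adjusted p = 5.28e-05). Slc25a20, which imports acylcarnitines for fatty acid oxidation, had 9.11, 9.09 and 8.98 in the knockdown, against 10.04 and 10.08 in the control (-1.001 ± 0.07 SE, limma adjusted p = 0.000106). It lies at the 2-fold line, at 2.00-fold. In each of these genes the groups did not overlap, and Slc25a29, a carrier of basic amino acids, was not called (-0.17 ± 0.25).

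Of the iron and glutathione carriers, Slc25a39, which imports glutathione, had log2 signals of 8.69, 8.72 and 8.67 in the Wdr5 knockdown, against 9.40 and 9.33 in the control (-0.67 ± 0.07 SE, limma adjusted p = 0.00033), with no overlap. The iron importers Slc25a37 (mitoferrin 1, -0.24 ± 0.11) and Slc25a28 (mitoferrin 2, -0.02 ± 0.09) were not called. Slc25a37 depended on the control arrays and the scaling, at -0.42 and called lower without luciferase replicate 2 (limma adjusted p = 0.013), at -0.07 and not called without luciferase replicate 1, and at -0.45 and called under median scaling (limma adjusted p = 0.00681). Slc25a45 was above background on every knockdown array and on no control array, and was at least 1.25-fold higher (mean signal 5.35 against 4.53). The 10 members not tested were Slc25a4, Slc25a18, Slc25a21, Slc25a22, Slc25a27, Slc25a31, Slc25a34, Slc25a35, Slc25a40 and Slc25a46, whose probes were above background on at most 1 array.

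**Figure D2:**
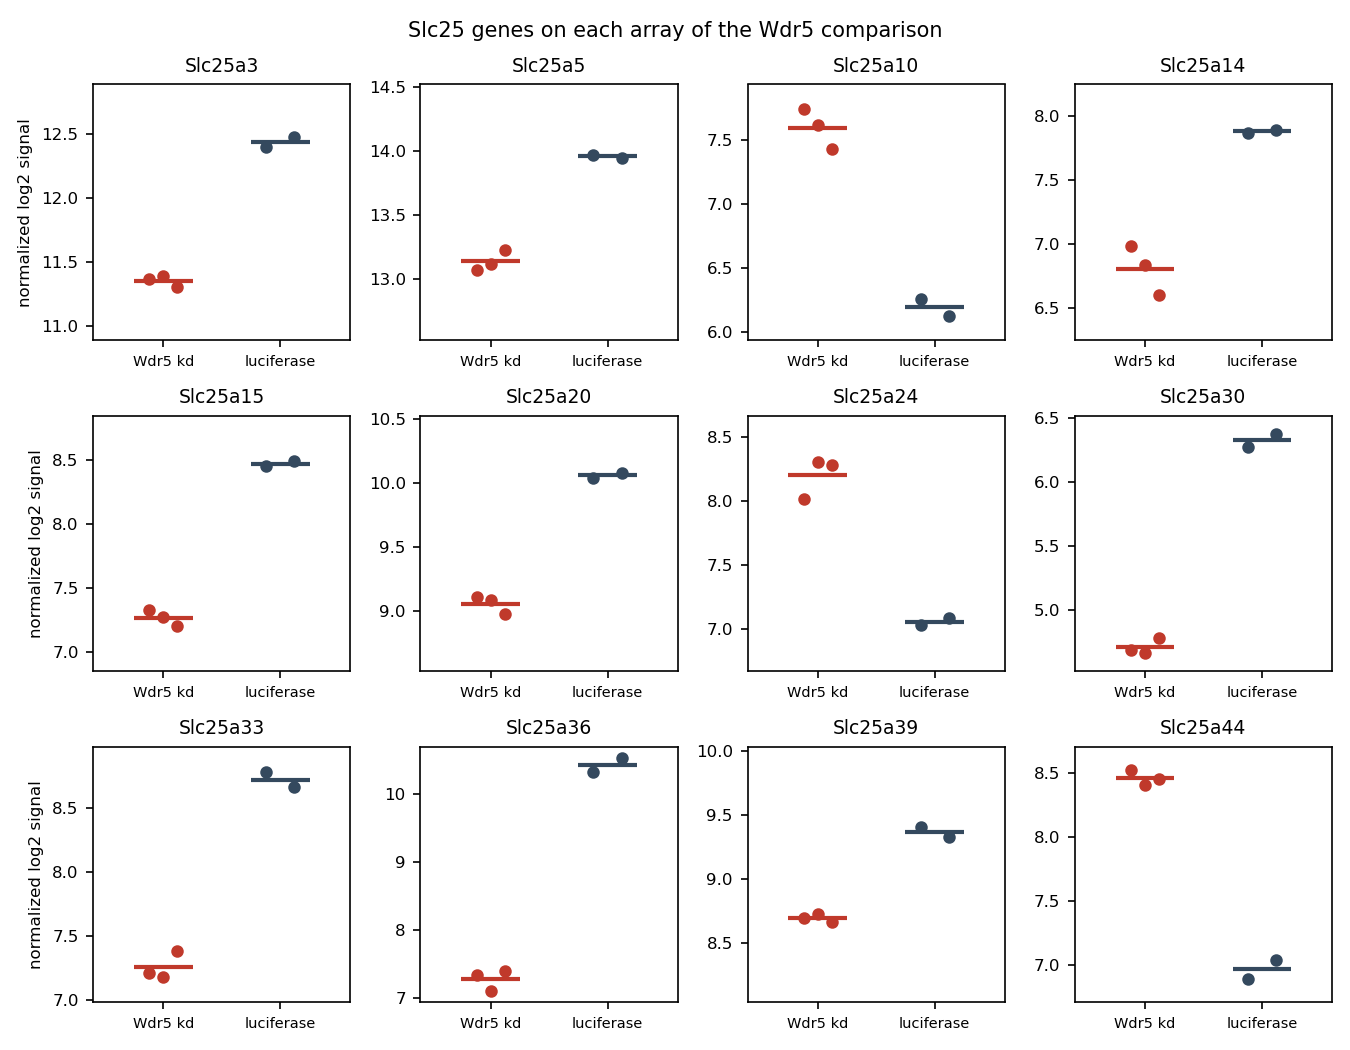
Normalized log2 signal on each array of the Wdr5 comparison for the 12 members that were called with a change of at least 2-fold or were called in both comparisons. Points are arrays (3 Wdr5 knockdown at left, 2 luciferase control at right), lines are group means, axes do not start at 0 and span at least 2 log2 units, and in every panel the 2 groups are apart.

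For 8 members more than 1 probe passed the filter in the Wdr5 comparison, and the probes did not always move alike. Slc25a3 had probes called in opposite directions. Its brighter probe read 2682, 2525 and 2213 on the knockdown arrays, against 5312 and 6553 on the control arrays, before normalization. Its dimmer probe read 1627, 1583 and 1484 on the knockdown arrays, against 968 and 1173 on the control arrays, and its log2 fold change was 0.73 ± 0.07 (SE, limma adjusted p over probes = 0.000325). The direction for Slc25a3 therefore depends on the probe, and with its probes averaged it was not called (-0.18, limma adjusted p = 0.0568). Slc25a1 had a second probe at -0.69 and Slc25a11 had further probes at -0.29 and -0.93, while the brightest probes of both genes were not called. The Slc25a11 probe at -0.93 was above background on no knockdown array and passed the filter by the control arrays alone. Slc25a24 had probes at 1.14, 1.04 and -0.04. The probes of Slc25a15 (-1.20 and -0.74), Slc25a20 (-1.001 and -1.28) and Slc25a38 (0.91, 0.53 and 1.31) moved in 1 direction. Which transcripts the probes of a gene report was not tested.

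**Figure D3:**
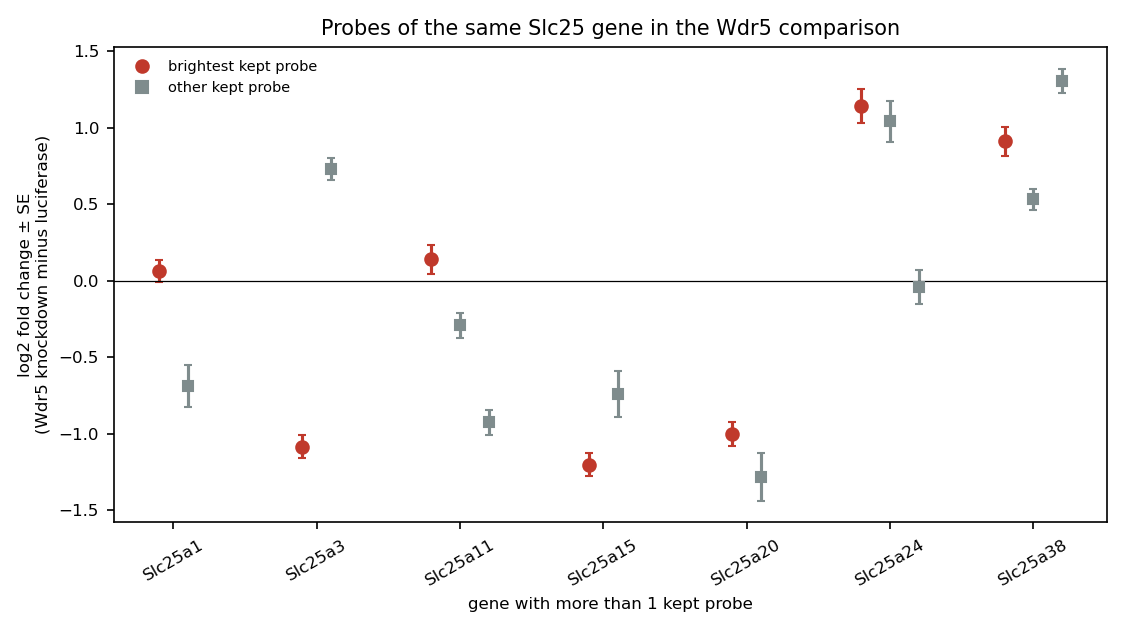
Log2 fold change, Wdr5 knockdown minus luciferase control, with its standard error, for each kept probe of 7 members with more than 1 kept probe. Red circles are the brightest kept probe and grey squares the others, and the probes of Slc25a3 lie at -1.08 and 0.73, on either side of 0.

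In the Oct4 knockdown fewer carriers passed the test. Slc25a36 fell 3.20-fold, and Slc25a5, Slc25a28, Slc25a39 and Slc25a26 fell by less than 2-fold. Slc25a24, Slc25a44, Slc25a22 and Slc25a4 were higher. Of the 20 members tested, 4 were higher, 5 were lower and 11 were not called, 45.0% called against 42.4% of all 9276 genes tested. In single directions 20% of the members were higher, against 24.3% of all genes, and 25% were lower, against 18.1%. With at least 2-fold, 1 was higher (5.0%, against 12.2% of all genes) and 1 was lower (5.0%, against 7.35%). The groups did not overlap for 14 members (70.0%, against 72.5% of all genes). The median log2 fold change was 0.08 over the members and -0.02 over all genes.

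These calls depend on single arrays and on the scaling. Without Oct4 knockdown replicate 1, no member was higher and 1 was lower, and without replicate 2, 1 was higher and 1 was lower, with the lone knockdown array assumed to vary like the GFP arrays. Slc25a24 and Slc25a22, which were not above background in the control, had no tested value in either case because 1 detected array is below the filter's minimum. Over all genes tested, 387 were then higher and 418 lower without replicate 1, and 580 and 692 without replicate 2, against 2250 and 1680 with both. The fall of Slc25a36 passed the test under every setting run, with an adjusted p of at most 0.0244, whereas those of Slc25a5, Slc25a26, Slc25a28 and Slc25a39 did not pass when either knockdown array was left out. Scaling the arrays to a common median put the median of all genes at -0.53, against -0.02 with quantile normalization, and it made 17.3% of all calls higher, against 57.3% with quantile normalization. Under this scaling only Slc25a24 of the 4 higher members passed the test.

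Slc25a36 had log2 signals of 6.83 and 6.79 in the Oct4 knockdown, against 8.48 and 8.50 in the GFP control (-1.68 ± 0.14 SE, limma adjusted p = 0.00113). The groups were thus far apart after normalization. Its deposited intensities were 53.1 and 48.1 in the knockdown, against 587 and 454 in the control, but the knockdown arrays were dimmer as a whole. On that scale the uncalled Slc25a3 also read lower, at 2496 and 2495, against 8986 and 5708. Slc25a26, which imports the methyl donor S-adenosylmethionine, changed by -0.79 ± 0.15. Slc25a33, related to Slc25a36, was not called (0.04 ± 0.20).

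Slc25a5 had log2 signals of 11.55 and 11.66 in the Oct4 knockdown, against 12.75 and 12.33 in the GFP control (-0.93 ± 0.19 SE, limma adjusted p = 0.013). Slc25a39 had 10.63 and 10.67 in the knockdown, against 11.49 and 11.59 in the control (-0.89 ± 0.14 SE, limma adjusted p = 0.00593). Both knockdown arrays were below both controls for each gene. Slc25a28 changed by -0.94 ± 0.17 (limma adjusted p = 0.00872), and Slc25a3 was not called (-0.06 ± 0.18). The Oct4 platform also holds probes for predicted genes described as similar to Slc25a5 and Slc25a36, and binding of near-identical transcripts to the probes of these 2 carriers was not tested.

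Slc25a24 had log2 signals of 7.92 and 7.86 in the Oct4 knockdown, against 6.12 and 6.33 in the GFP control, where it was above background on neither array. With quantile normalization it was at least 2.57-fold higher (limma adjusted p = 0.00146), and it passed the filter by the knockdown arrays alone. Its deposited intensities were 120.6 and 114 in the knockdown, against 77.7 and 105.4 in the control. Its fitted log2 fold change was 1.20 and called under median scaling, and 0.38 in the authors' deposited table. Slc25a44 had log2 signals of 8.56 and 8.52 in the knockdown, against 7.57 and 7.54 in the control (0.98 ± 0.14 SE, limma adjusted p = 0.00422), without overlap. Before normalization the order was the opposite for Slc25a44, with intensities of 189.0 and 179.7 on the dimmer knockdown arrays, against 294.7 and 236.5 on the GFP arrays, so its rise is relative to the other genes on the array, and under median scaling it was 0.41 and not called. Slc25a4 (0.61 ± 0.14, limma adjusted p = 0.0191) read 103.3 and 108.0 in the knockdown, against 214.3 and 184.0 in the control before normalization, and likewise was not called under median scaling. The glutamate carrier Slc25a22 was above background on both knockdown arrays and on neither GFP array. It thus passed the filter by the knockdown arrays alone, was called higher (limma adjusted p = 0.0153) and is given no fold. Its intensities overlapped before normalization, at 45.7 and 33.4 in the knockdown, against 49.3 and 24.8 in the control. Under median scaling and in the authors' deposited table it was not called.

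**Figure D4:**
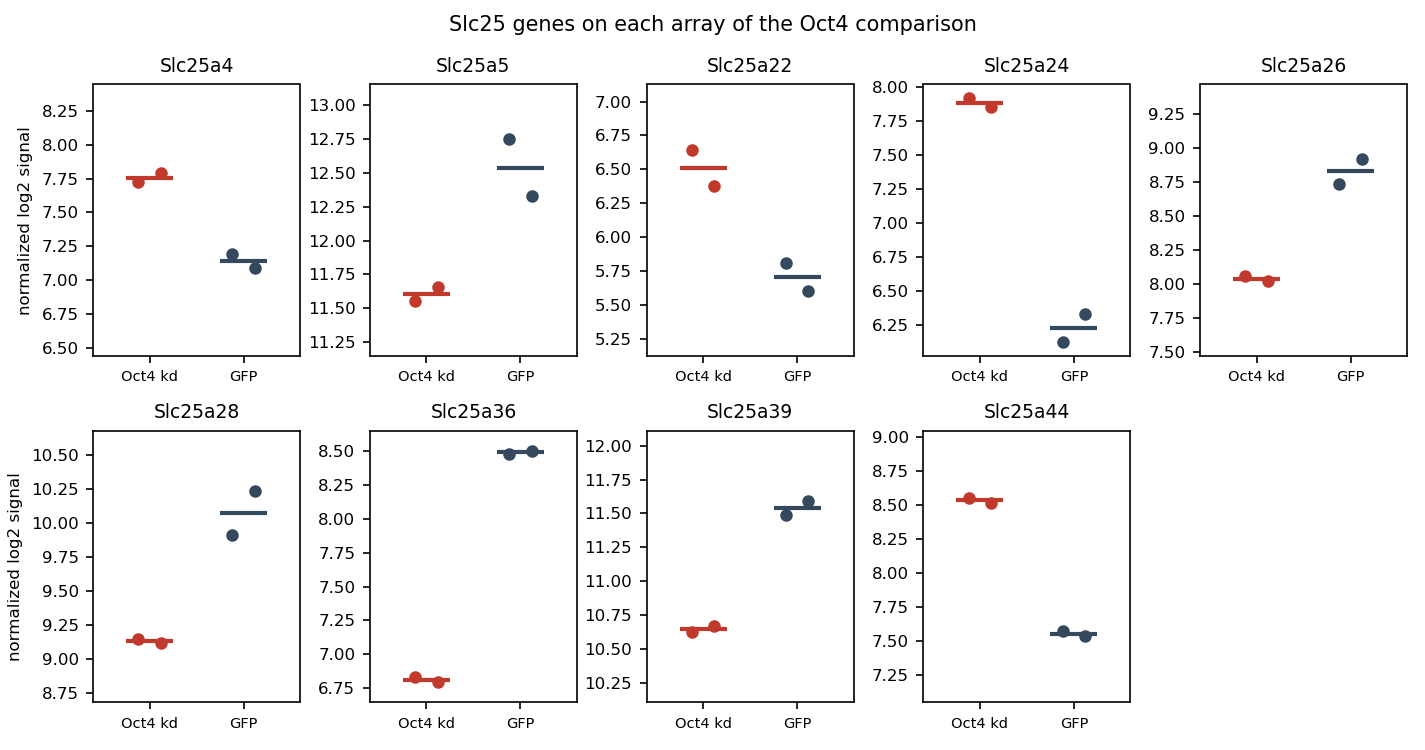
Normalized log2 signal on each array of the Oct4 comparison for the 9 called members. Points are arrays (2 Oct4 knockdown at left, 2 GFP control at right), lines are group means, axes do not start at 0 and span at least 2 log2 units, and the groups are apart in each panel, with Slc25a22 and Slc25a24 not above background in the GFP control and Slc25a4, Slc25a22 and Slc25a44 not called under median scaling.

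The members not called in the Oct4 comparison lay between -0.23 for Slc25a11 and 0.53 for Slc25a12, which was nearest to the threshold (limma adjusted p = 0.0586) and was called without GFP replicate 1. Slc25a10, at 0.52, was also called without that array. On GFP replicate 2, the only control array then left, neither of these 2 genes was above background. Slc25a10 was above background on neither GFP array, so it passed the filter by the knockdown arrays alone and 0.52 is a fitted value. A second, dimmer probe of Slc25a15 was called at 0.67 (limma adjusted p over probes = 0.0147), while its brightest probe was at 0.23. Before normalization the dimmer probe read 61.3 and 59.1 in the knockdown, against 104.2 and 105.3 in the control, the opposite order. It was not above background on GFP replicate 2. The 19 members with no tested probe included Slc25a20, Slc25a25, Slc25a16, Slc25a32, Slc25a13 and Slc25a1, which were tested in the Wdr5 comparison on the other platform.

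The 2 comparisons have no arrays in common, come from different platforms and cell lines and were normalized apart, so their values are set side by side and the differences between them were not tested. Of the 18 members tested in both, 5 were called in both (27.8%, against 33.8% of the 6170 genes tested in both). Lower in both were Slc25a36 (-3.14 in the Wdr5 and -1.68 in the Oct4 knockdown), Slc25a5 (-0.82 and -0.93) and Slc25a39 (-0.67 and -0.89). Higher in both were Slc25a44 (1.50 and 0.98, the second not called under median scaling) and Slc25a24. The log2 change of Slc25a24 was 1.14 in the Wdr5 knockdown. In the Oct4 knockdown Slc25a24 was at least 2.57-fold higher with quantile normalization, and its fitted log2 change was 1.20 under median scaling. None was called in opposite directions, against 520 of the 2086 genes called in both, but 5 members are too few to set against that share. Called or not, 12 of the 18 members tested in both had the same sign in the 2 comparisons. Called in the Wdr5 comparison alone were 7 members (Slc25a3, Slc25a10, Slc25a14, Slc25a15, Slc25a30, Slc25a33 and Slc25a38), in the Oct4 comparison alone Slc25a26 and Slc25a28, and 4 were called in neither. The authors' deposited table gave smaller log2 fold changes for the same probes in 18 of the 20 members called in the Wdr5 comparison and in all 9 called in the Oct4 comparison, for example -1.97 and -0.50 for Slc25a36, 0.67 and 0.34 for Slc25a44 and -0.45 and -0.79 for Slc25a39. The exceptions were Slc25a5 (-0.98 in the authors' deposited table, against -0.82 here) and Slc25a3 (-1.10, against -1.08) in the Wdr5 comparison. In that table all 20 members called here in the Wdr5 comparison and 8 of the 9 called in the Oct4 comparison had an adjusted p under 0.05, with the same sign. Values here were over 1.5 times larger for 16 and 7 of them.

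**Figure D5:**
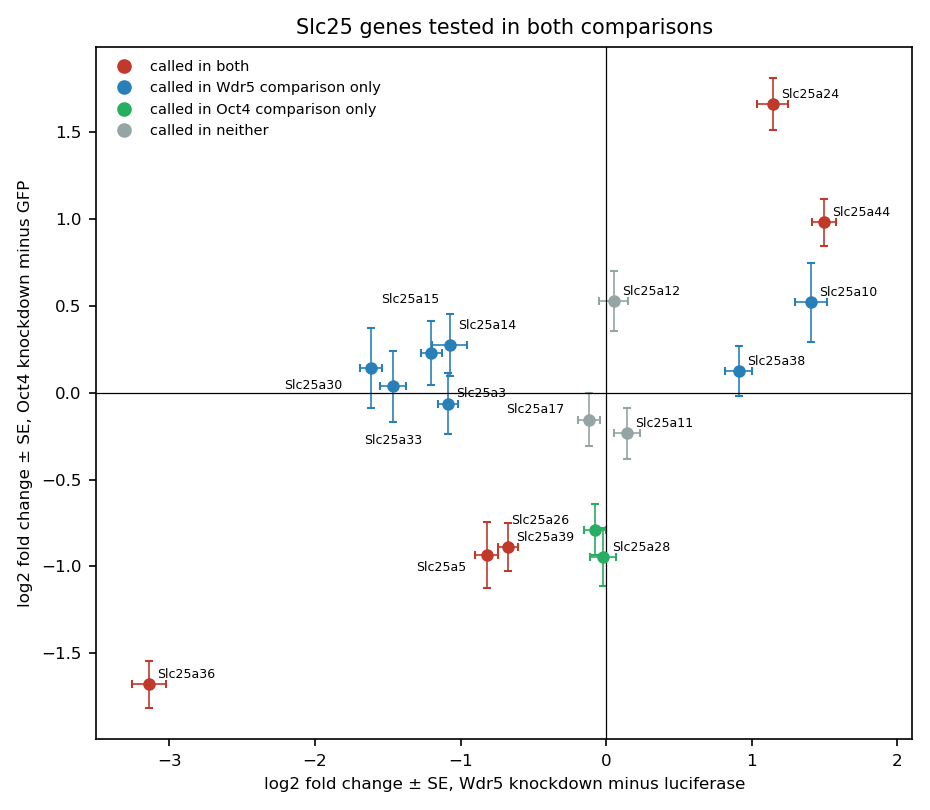
Log2 fold change with its standard error in the Wdr5 comparison (horizontal axis) and the Oct4 comparison (vertical axis) for 17 of the 18 members tested in both, each knockdown minus its control. The 5 members called in both (red) lie at lower left (Slc25a36, Slc25a5, Slc25a39) or upper right (Slc25a24, Slc25a44), the Oct4 value of Slc25a44 is not called under median scaling, and that of Slc25a24 is a fitted value against a control below background.

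Some probes of the family stand outside the members because their deposited symbol is older. The probe of Slc25a47, deposited under another symbol, changed by 1.59 ± 0.09 in the Wdr5 knockdown (limma adjusted p over probes = 4.57e-05). It changed by 0.78 ± 0.17 after Oct4 knockdown (limma adjusted p over probes = 0.015). A probe of Slc25a17 deposited as Pmp47 was at 1.17 ± 0.14 after Oct4 knockdown (limma adjusted p over probes = 0.00282), while the probe under the current symbol was not called (-0.15). The Pmp47 probe was above background on only 2 arrays, the filter's minimum, and the probe under the current symbol on every array. How the Pmp47 call depends on scaling and on single arrays was not tested.

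Carrier proteins reach the inner membrane through import complexes, and in the Wdr5 knockdown 4 of the 16 tested import genes rose and 6 fell. This is 62.5% called, against 68.7% of all genes, with a median log2 fold change of 0.12, against 0.10 over all genes. Timm22, of the TIM22 complex, was never above background in either comparison, so the counts do not cover it. Tomm7, a small subunit of the outer membrane TOM complex (-1.17 ± 0.07), Timm50, a receptor of the TIM23 complex (-0.90 ± 0.07), and Timm17a, part of its channel (-0.60 ± 0.07), fell most. The TOM receptor gene Tomm22 (1.13 ± 0.17), Timm13, an intermembrane space chaperone (0.65 ± 0.14), and Timm29, of the TIM22 complex (0.62 ± 0.07), had the largest rises. In the Oct4 knockdown 3 of 14 fell and none rose (21.4% called, against 42.4% of all genes, median -0.18 against -0.02), with Timm8a1 at -1.22 ± 0.17, Timm9 at -0.73 ± 0.14, both chaperones of the intermembrane space, and the TOM subunit gene Tomm5 at -0.51 ± 0.14. Under median scaling 7 of these 14 were lower, and none was called without Oct4 knockdown replicate 1, while 1 (Timm8a1) was lower without replicate 2.

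Of other mitochondrial membrane transport genes, 9 of 16 rose and 3 fell in the Wdr5 knockdown. The shares were 56.2% higher and 18.8% lower, against 38.2% and 30.5% of all genes, and the median log2 fold change was 0.25, against 0.10. Mtch2, a relative of the carriers in the outer membrane, had a brightest probe called lower (-2.68 ± 0.07) and 2 dimmer ones called higher at 0.67 and 0.57. Its relative Mtch1 was at 0.97 ± 0.09, with a second probe at -1.21, so neither gene has a direction that holds over its probes. The outer membrane channel genes Vdac3 (-1.70 ± 0.09) and Vdac1 (-0.31 ± 0.07) fell, and Micu2, which gates the calcium uniporter, rose (0.70 ± 0.08). The count of higher genes in this list was 4 under median scaling, and it was 5 without Wdr5 knockdown replicate 1, 5 without replicate 2, 6 without luciferase replicate 1 and 6 without luciferase replicate 2, but the genes named here kept their calls, save Vdac1 without luciferase replicate 1 (-0.27). In the Oct4 knockdown 7 of 14 were higher and 1 lower (57.1% called, against 42.4% of all genes, median 0.67 against -0.02). Among the 7, Sfxn4 was above background on neither GFP array and passed the filter by the knockdown arrays alone. Sfxn3, of the sideroflexin family of serine carriers, was at 2.05 ± 0.20, Mpc2, a subunit of the pyruvate carrier, at 1.50 ± 0.17 and Mtch1 at 1.10 ± 0.14, and Sfxn1 fell (-0.49 ± 0.15). Under median scaling 2 were higher and 4 lower, with Sfxn3 at 1.51, Mpc2 at 0.90 and Mtch1 not called at 0.48. Without Oct4 knockdown replicate 1, 2 were higher and none was lower, and without replicate 2, 3 were higher and none was lower. Sfxn3 and Mpc2 were called in each of these settings, and a dimmer probe of Mtch1 was not called at 0.19.

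Among regulators of mitochondrial biogenesis, 2 of 13 rose and 6 fell in the Wdr5 knockdown, and 1 of 11 was higher and 4 lower in the Oct4 knockdown. These are 61.5% and 45.5% called, near the 68.7% and 42.4% of all genes, with median log2 fold changes of -0.09 and -0.27. Tfam, needed to transcribe and package mitochondrial DNA, was at -1.73 ± 0.10 in the Wdr5 and -0.73 ± 0.14 in the Oct4 knockdown. Tfb1m, a ribosomal RNA methyltransferase of mitochondria, was at -1.16 ± 0.10 and -0.90 ± 0.18. Gabpb1, a subunit of the ETS-family factor GABP, fell in the Wdr5 knockdown (-0.85 ± 0.13), where Nrf1 (0.87 ± 0.09) and Tfb2m (0.66 ± 0.09) rose. Ssbp1, the single-strand binding protein of mitochondrial DNA, fell in the Oct4 knockdown (-0.96 ± 0.14), as did the mitochondrial RNA polymerase gene Polrmt (-0.63 ± 0.17, named beyond the 3 largest), and Esrra was at least 1.08-fold higher. Esrra passed the filter by the knockdown arrays alone and was not called under median scaling (0.37). No gene of this list was called in the Oct4 knockdown when either knockdown array was left out, whereas 4 were lower under median scaling.

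Markers of other cell types moved in the same arrays. In bulk RNA, fewer cells of a type and less RNA per cell cannot be told apart. In the Wdr5 comparison 6 of 7 tested feeder fibroblast markers were higher and 1 lower, and the summed normalized signal of the 10 listed, on the linear scale, ran from 2057 to 2114 in the knockdown, against 715 to 716 in the control, with Lum and Postn never above background. Of 5 tested primitive endoderm markers 3 were higher and 1 lower, and the summed signal of the 8 listed was 8447 to 8778 in the knockdown, against 1814 to 1915 in the control, with Sox17 and Foxa2 never above background, and of 6 tested trophectoderm markers 3 were higher and 2 lower, with a summed signal of the 8 listed of 16922 to 18111 in the knockdown, against 16289 to 16390 in the control, and with Elf5 never above background. In the Oct4 comparison 4 of 5 tested trophectoderm markers were higher and 1 lower (summed signal 21619 to 24767 in the knockdown, against 1582 to 1695 in the control, with Eomes, Elf5 and Hand1 never above background). All 5 tested primitive endoderm markers were higher there (12681 to 13929, against 2943 to 3141, with Sox7, Lama1 and Foxa2 never above background). Of the fibroblast markers in the Oct4 comparison 1 was tested and not called, with a summed signal of 509 to 510 in the knockdown, against 457 to 460 in the control, and the other 9 were never above background. Erythroid markers, listed because of the heme-related carriers, were almost all undetected, with 4 of 5 in the Wdr5 and 6 of 6 in the Oct4 comparison never above background. Dcn, a fibroblast marker called higher in the Wdr5 comparison, passed the filter by the knockdown arrays alone. So did the trophectoderm marker Gata3, called higher in the Oct4 comparison. Under median scaling 3 trophectoderm and 4 primitive endoderm markers were higher in the Oct4 comparison, and 5 fibroblast markers in the Wdr5 comparison. The part of these cell types in the carrier values was not tested.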

How the data were processed

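RNA of mouse ES cells was measured on 9 Illumina beadchips of 1 colour. The authors deposited probe intensity values not normalized between arrays, and beside each a detection score, a fraction near 1 for bright probes, per the file headers. They also deposited normalized log2 values and tables of log2 fold changes with p-values. Per the submitters' processing notes limma was used, without a stated version or step. The normalization and scanner software are not named in any source used here.

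The steps here ran limma 3.58.1 under R 4.3.3: neqc (normal-exponential background correction from the detection scores, offset 16, quantile normalization, log2), a filter keeping probes scored above 0.95 on 2 or more arrays, and the kept probe of highest mean signal per gene. Of 59 member probes on the Wdr5 platform 41 were kept, and of 55 on the Oct4 platform 23. Each comparison was fitted on all genes (lmFit, eBayes, group as the only term) with two-sided tests and Benjamini-Hochberg adjustment over all genes tested, at 0.05. Limma adjusted p-values over probes come from the same fit on all kept probes. Quantile normalization makes each change relative to the other genes. Where no array of a group was above background, the fold is a bound: the brighter group's mean against, per array, the higher of the gene's own signal and the lowest signal among detected probes. A bound under 1 is not given.

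Symbols came from accessions matched to RefSeq names of GRCm38.p6 for 24202 of the 25697 Wdr5-set probes and 25596 of the 46643 Oct4-set probes, and otherwise from the table. Members kept their deposited symbols. Some genes counted in the totals are not reported here by name or drawn. Members called at 2-fold or in both comparisons are given array by array, and 3 changes each way for the other lists. The members and lists were chosen with earlier results of these data known. The fit was tested on simulated data. Alternatives covered scaling, background, filter, probe choice, variance model, replicate block, the authors' values and each array left out. The number of arrays limits the precision.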

Additional observations from a re-analysis of the deposited data

How the results depend on the processing

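In the Wdr5 comparison every called member kept its sign and its call under each alternative that gave a value, except Slc25a3 with its probes averaged. Averaging the kept probes turned the sign of 2 uncalled members, Slc25a1 (-0.31, limma adjusted p = 0.0243) and Slc25a11 (-0.36, limma adjusted p = 0.00328), and both were then called lower. The Slc25a11 average includes its probe at -0.93, which passed the filter by the control arrays alone. Leaving out each array in turn gave 9 to 10 members higher and 9 to 11 lower in the Wdr5 comparison, and 0 to 6 higher and 1 to 5 lower in the Oct4 comparison. Over all genes these ranges were 3352 to 3692 higher and 2380 to 3001 lower in the Wdr5 comparison, and 387 to 2616 higher and 418 to 1911 lower in the Oct4 comparison. Under median scaling 1 member was higher and 5 were lower in the Oct4 knockdown, against 4 and 5 with quantile normalization, with 578 genes higher and 2765 lower, against 2250 and 1680, and the median of the members was -0.47. With the replicate number as a block, the counts were 9 higher and 11 lower in the Wdr5 comparison and 3 higher and 5 lower in the Oct4 comparison, where Slc25a4 was not called (limma adjusted p = 0.0542). The block changed no other member's call, and the numbers mark no known shared culture or day: same-numbered arrays deviated from their group means with correlations of -0.03 and -0.02 among Wdr5-set arrays and -0.35 among Oct4-set arrays. The authors' log2 values gave 3 higher and 5 lower in the Oct4 comparison (Slc25a22 not called), as did their deposited table, an alternative chosen after seeing the data. The test on the authors' log2 values was not run for the Wdr5 set, where their rows are not paired with gene names here. The causes of these changes were not tested. Signal over background limits what can be said of 9 members, which were tested in neither comparison.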
